A study of Homo sapiens and Mus musculus with 20 samples.

Results

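The insulin-like growth factor axis was described here through 10 genes: the ligands IGF1 and IGF2, the receptors IGF1R and IGF2R, and the binding proteins IGFBP2 to IGFBP7. They were picked by symbol from the 12 IMR90 libraries, and the choice of the axis drew on the measured differences in these libraries, so the values below are a description and carry no p. Of the 10, 9 had a row in each of the 3 IMR90 tables, which listed 16683, 16417 and 12013 genes. IGF1 had none and was not analysed here.

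IMR90 is a human fetal lung fibroblast line, labelled WT. Cells were treated with A485, which inhibits the acetyltransferase p300, with MS-275, which inhibits class I histone deacetylases, or with pyruvate. Each treatment had 2 libraries and 2 untreated control libraries of its own, labelled Control2, Control3 and Control6 in that order. The study's text says that pyruvate was given to senescent cells. The study asked how histone lactylation, a mark made from lactate that these agents were used to change, relates to senescence. The labels give neither doses nor passage, and they do not say whether libraries of a group came from separate cultures, so errors measure the spread between libraries, which may be technical. A second organism, mouse muscle labelled WT with no age in the labels, was treated with MS-275 (control Control4) or with NALA, which is sodium lactate (control Control5), again with 2 libraries a group. The study's text says that both agents were injected into the muscle for a week. By that text the mice given NALA were older than the female mice given MS-275.

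IGF1 and IGF2 are secreted growth factors that act through the receptor tyrosine kinase IGF1R, while IGF2R carries IGF2 to the lysosome for destruction. In tissue fluid most of the ligand is held by binding proteins, which extend its life, keep it from the receptor or release it when proteases cut them. Fibroblasts are a known source of several binding proteins, and IGFBP3, IGFBP5 and IGFBP7 are often followed in work on senescent cells.

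Values are read counts per gene divided by a size factor per library, called normalized read counts below. They were set within each treatment's 4 libraries, so they are compared only there. The IMR90 libraries carried between 24179065 and 46971227 reads over the listed genes. All 8 fibroblast markers checked had rows in every IMR90 table, and none of the 4 immune markers did. In a bulk sample, fewer cells of a type and less RNA per cell cannot be told apart. Libraries with the same replicate number deviated together from their group means in the MS-275 experiment (correlation across genes 0.73) and less so in the A485 experiment (0.32), but not in the pyruvate experiment (0.002).

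Members differed in sequence composition and in position. Canonical transcripts of IGFBP2, IGFBP6, IGFBP4 and IGF2 held 67.4%, 64.7%, 62.6% and 60.5% G and C, above the median of 48.6% over genes tested in the pyruvate experiment, and the other 5 listed members held 49.4% to 52.1%. IGFBP2 (hg38, chromosome 2, 216632828 to 216664436, plus strand) and IGFBP5 (chromosome 2, 216672105 to 216695549, minus strand) lie end to end with 7669 bases between them. IGF2 (chromosome 11, 2129112 to 2158391, minus strand) overlaps INS-IGF2, the antisense gene IGF2-AS and MIR483 in the annotation. The strand setting of the counting and its handling of reads over several genes are not stated. Reads there may thus be shared with those genes or left uncounted. IGFBP7 overlaps POLR2B, and IGF2R overlaps AIRN, with the same limit. The list of RefSeq promoters held 8 of the 10 members, and IGF2 and IGFBP7 were not among them.

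The promoters of IGFBP3, IGFBP4 and IGFBP5 are shown because these binding proteins had the highest length-normalized levels in Control6 and were all lower after A485. Each is the 250 bases before the RefSeq start (GRCh38.p14), 5′ to 3′ on the gene's strand, with a GC box (GGGCGG) or TATA box (TATAAA) on either strand in capitals. The windows are chr7:45921273-45921522 (minus strand) for IGFBP3, chr17:40443200-40443449 (plus strand) for IGFBP4 and chr2:216695550-216695799 (minus strand) for IGFBP5. The last overlaps an exon of the noncoding RNA gene DIRC3-AS1.
IGFBP3: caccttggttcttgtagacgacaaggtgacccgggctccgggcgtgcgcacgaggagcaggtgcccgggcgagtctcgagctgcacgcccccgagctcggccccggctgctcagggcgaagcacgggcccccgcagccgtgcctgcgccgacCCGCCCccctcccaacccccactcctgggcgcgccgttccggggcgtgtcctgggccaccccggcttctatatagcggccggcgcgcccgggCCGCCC
IGFBP4: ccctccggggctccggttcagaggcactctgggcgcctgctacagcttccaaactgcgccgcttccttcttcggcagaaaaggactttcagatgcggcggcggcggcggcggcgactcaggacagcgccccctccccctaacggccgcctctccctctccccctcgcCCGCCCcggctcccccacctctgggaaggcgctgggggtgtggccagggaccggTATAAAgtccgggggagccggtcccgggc
IGFBP5: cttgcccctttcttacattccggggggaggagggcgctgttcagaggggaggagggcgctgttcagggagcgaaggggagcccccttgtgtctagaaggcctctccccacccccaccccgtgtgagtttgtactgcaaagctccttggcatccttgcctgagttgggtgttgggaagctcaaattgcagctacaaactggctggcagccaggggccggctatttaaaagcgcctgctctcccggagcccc
IGFBP3 held 2 GC boxes in 250 bases of 76.0% G and C. IGFBP4 held 1 GC box and 1 TATA box in 71.6% G and C. IGFBP5 held neither in 61.2% G and C. Over 35116 promoter windows of that length the median was 58.0%, 42.6% held a GC box and 10.7% a TATA box. An AP-1 site (TGANTCA, both strands) stood in 6.57% of windows and an E box (CACGTG, its own reverse complement) in 6.34%. Neither was in the 3 windows shown, and IGF2R alone among the 8 matched members held E boxes, 3 in its window. A CCAAT box (CCAAT, both strands), found in 32.0% of windows, was in 1 of the IGFBP2 windows and in no window of the other matched members. A match is a description of letters only.

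In the untreated Control6 libraries most binding proteins stood high and the ligand low. On a length-normalized scale, in which each value is divided by its canonical transcript length and expressed in ppm, where 1000000 ppm is the sum over the listed genes of the library, the 2 Control6 libraries had IGFBP4 at 4632 and 4881, IGFBP5 at 3531 and 3027, and IGFBP3 at 1646 and 1670. IGFBP7 followed at 352 and 364, IGFBP6 at 226 and 246, and IGF2R at 204 and 155. IGFBP2 had 57.8 and 65.3, IGF1R 21.1 and 18.4, and IGF2 1.03 and 0.726 ppm. In this group neighbours in the order did not overlap. IGFBP4 was the 24th and 22nd most abundant gene of these libraries by that measure, and IGF2 the 10340th and 10789th.

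In Control2 and Control3 the order was looser. IGFBP5 had 2194 and 2995 ppm in Control2 and IGFBP4 1617 and 2141, so the 2 genes stood close to each other. In Control3, IGFBP5 had 3178 and 1401 and IGFBP4 1353 and 1800, and these ranges overlapped. IGF2 had 0.880 and 20.4 ppm in Control2 and 2.33 and 10.2 in Control3. The second library of each of these controls was thus the higher for the ligand. In these second libraries IGF2 stood above IGF1R, which had 15.3 ppm in Control2 and 6.17 in Control3. In the first libraries IGF2 stood below IGF1R, at 16.7 and 18.3. IGFBP3 in Control3 had 182 and 233 ppm, beside 217 and 482 for IGFBP7 and 191 and 383 for IGFBP6.

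**Figure D1:**
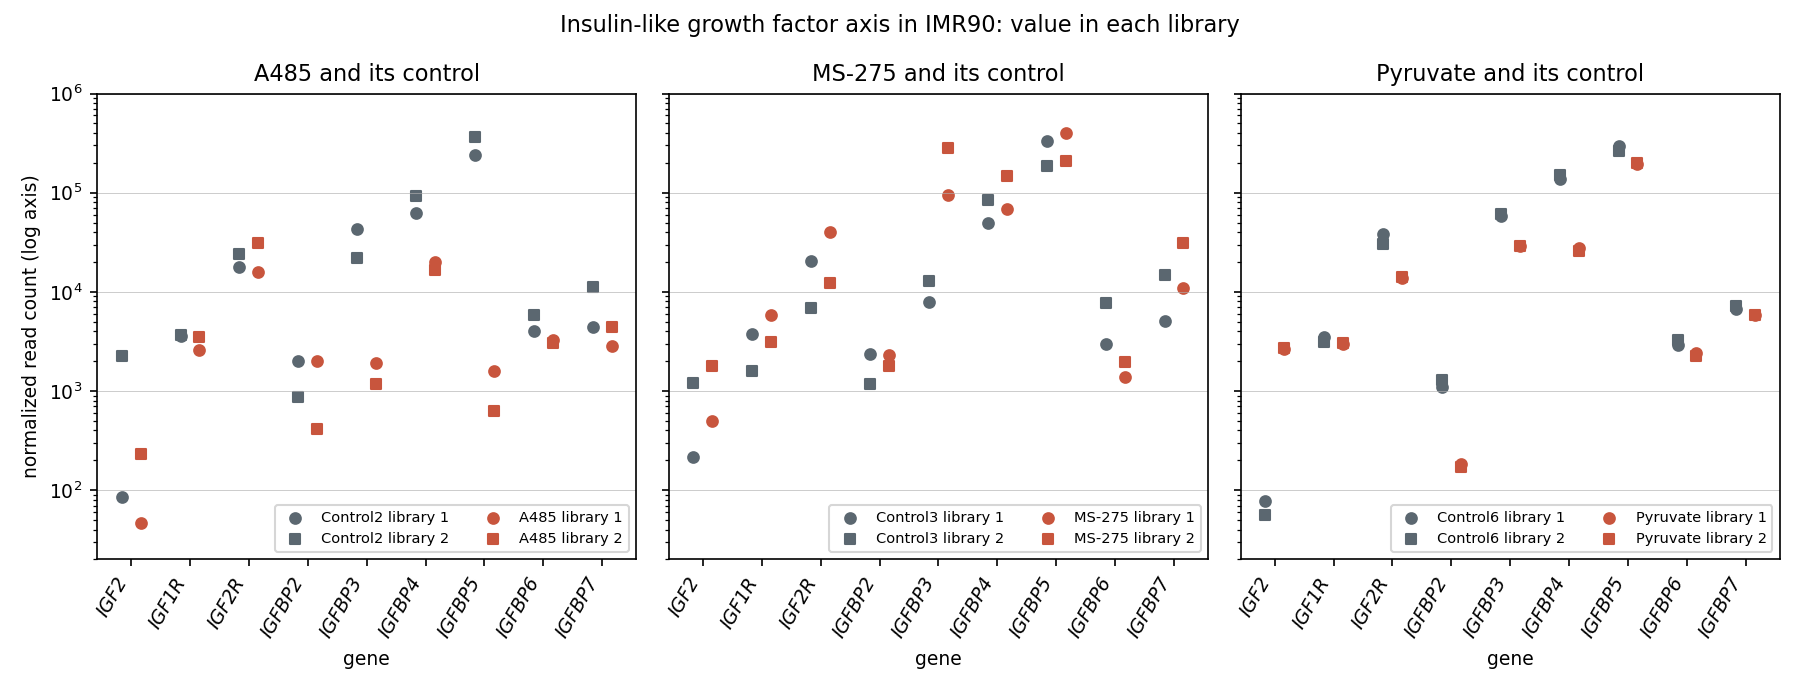
Normalized read count on a log axis for the 9 listed members in each of the 12 IMR90 libraries, with 1 panel for each treatment and its control (grey, control; red, treated; circles, replicate 1; squares, replicate 2). IGFBP3 and IGFBP5 after A485, IGFBP3 after MS-275 and IGF2 after pyruvate lie far from their controls, while IGF2 is spread widely within Control2.

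After A485, the transcripts of 3 binding proteins were far lower, while those of both receptors differed less. IGFBP5, a binding protein of connective tissue and bone that attaches to extracellular matrix, went from 238534 and 366446 normalized read counts in Control2 to 1607 and 625. IGFBP3, the main carrier of IGF in blood, had 42773 and 21743 in control and 1908 and 1187 after A485. IGFBP4, which mostly blocks IGF action until a protease cuts it, had 62118 and 92596 against 20062 and 16427. For each of the 3 both treated libraries lay below both control libraries.

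The size of the difference was 271-fold for IGFBP5 (log2 difference -8.20 ± 0.46 SE), 20.8-fold for IGFBP3 (-4.34 ± 0.38) and 4.24-fold for IGFBP4 (-2.06 ± 0.27), as ratios of group means with n = 2. IGFBP5 ranked 4th lowest by log2 difference among 16084 genes tested, IGFBP3 207th and IGFBP4 854th. Within replicate numbers 1 and 2 the log2 difference was -7.21 and -9.19 for IGFBP5, -4.49 and -4.19 for IGFBP3, and -1.63 and -2.49 for IGFBP4. With equal library totals IGFBP4 stood at -1.67, and with quantile normalization at -1.37. The IGFBP5 value varied more between numbers than that of the other pair, and its treated libraries differed from each other more than its control libraries did on a log scale.

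The other binding proteins differed less. IGFBP6, which prefers IGF2, had 4036 and 5773 in control and 3265 and 3040 after A485, a log2 difference of -0.62 ± 0.21, with no overlap between groups. IGFBP7, a low-affinity binder of IGF that is deposited in matrix, had 4397 and 11073 against 2838 and 4407 (-0.98 ± 0.45), and here the groups overlapped. IGFBP2, the neighbour of IGFBP5, had 1988 and 870 in control and 1997 and 416 after A485 (-0.53 ± 0.76). Its 2 control libraries were further apart than the group means, and within replicate number 1 its log2 difference was 0.01 beside -7.21 for IGFBP5.

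The receptors showed smaller differences, which depended on the normalization. IGF1R had 3554 and 3665 in control and 2589 and 3508 after A485 (-0.26 ± 0.20), and IGF2R 17785 and 23873 against 15729 and 31173 (0.10 ± 0.35). Scaling libraries to equal totals turned IGF1R to 0.13 and put IGF2R at 0.50, a setting that put the median of all genes at 0.40. With quantile normalization IGF1R stood at -0.16 and IGF2R at 0.72. After a trend on GC content and transcript length was removed, they stood at 0.14 and 0.54. IGF2 had 86 and 2236 in Control2 and 46 and 232 after A485, and its groups overlapped. Its log2 difference was -2.07 ± 1.53 over the group, and -0.87 and -3.26 within replicate numbers. Without the second Control2 library the value turned to 0.28, so its direction rests on 1 control library.

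Of the 9 listed members, 3 passed the thresholds used for all genes (limma, Benjamini-Hochberg adjusted p under 0.05 and a log2 difference above 1 in size), all of them lower, and 5 had groups that did not overlap. Over all genes tested 10.4% were called, 7.06% were called lower, 3.31% higher, and 61.0% had groups that did not overlap. The members were chosen with these differences known, so nothing is read from that contrast. Their median log2 difference was -0.98 and that of all genes 0.01. Fibroblast markers moved too: the summed value of the 8 markers was 1357445 to 1511442 in Control2 and 428267 to 502039 after A485. The epithelial list had a row for EPCAM alone, at 47.7 to 64.2 in control and 177 to 208 after A485. VWF, the 1 endothelial marker with a row, had 34.2 to 102 in control and was listed at 0 in both A485 libraries. Their part in the binding protein values was not tested.

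**Figure D2:**
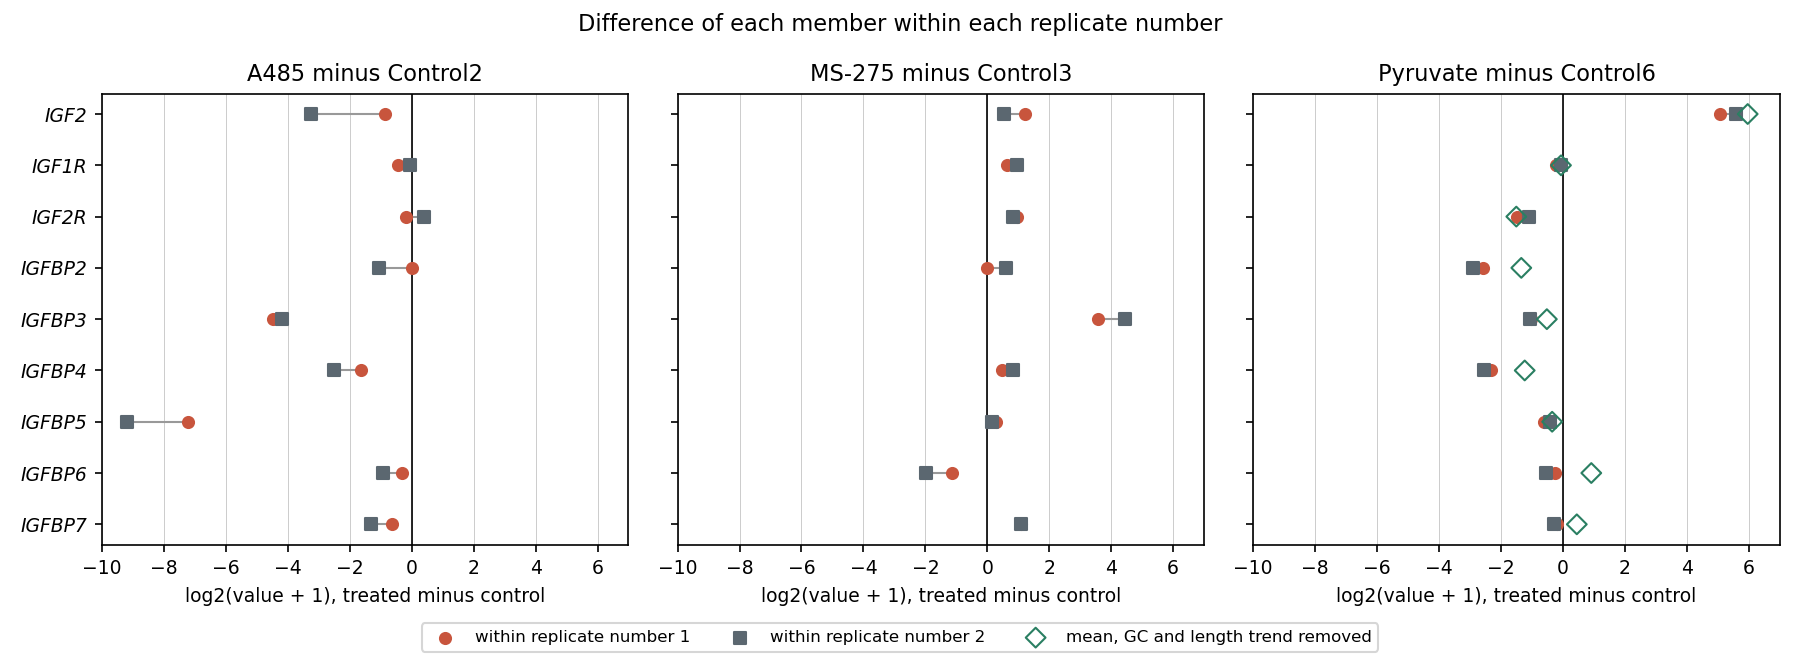
Difference in log2(value + 1) between treated and control libraries of the same replicate number for each listed member (circles, number 1; squares, number 2), with 1 panel for each treatment. Diamonds in the pyruvate panel give the group difference after a trend on GC content and transcript length was removed. IGFBP5 lies at -7.21 and -9.19 after A485, IGFBP3 at 3.58 and 4.44 after MS-275, and IGF2 at 5.06 and 5.57 after pyruvate.

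MS-275 was read within replicate number, because the 2 libraries of a group differed widely in this experiment. IGFBP3 stood out. It had 7887 normalized read counts in Control3 replicate 1 and 94131 in MS-275 replicate 1, an 11.9-fold difference, and 12969 against 281590 in replicate 2, a 21.7-fold difference. Both treated libraries lay above both controls, and the mean ratio was 18.0-fold (log2 difference 4.01 ± 0.62). IGFBP3 ranked 80th from the top of 15883 genes tested.

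IGFBP6 was the one binding protein lower in both pairs. Control3 had 3004 and 7717 and MS-275 1371 and 1945, with log2 differences of -1.13 and -1.99 within numbers and no overlap between groups. IGFBP7 had 5130 and 14623 in control and 10808 and 30841 after MS-275, so the ratio was 2.11 in each pair while the 2 controls differed from each other by 2.85-fold. Groups overlapped for IGFBP7 although the pairs did not differ in direction.

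IGFBP4 had 49514 and 84464 in Control3 and 69095 and 148716 after MS-275, ratios of 1.40 and 1.76 within numbers. IGFBP5, far lower after A485, had 328941 and 186052 in control and 395166 and 207526 after MS-275, ratios of 1.20 and 1.12. IGFBP2 had 2356 and 1167 against 2323 and 1773, ratios of 0.986 and 1.52, which went opposite ways. For all 3 genes the groups overlapped.

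Ligand and receptors were higher in both MS-275 pairs, by less than the gap between the 2 control libraries. IGF2 had 216 and 1214 in control and 500 and 1772 after MS-275, ratios of 2.31 and 1.46. IGF1R had 3723 and 1607 against 5849 and 3105, ratios of 1.57 and 1.93. IGF2R had 20344 and 6878 against 39781 and 12176, ratios of 1.96 and 1.77. The second library was the lower for both receptors in control and treated cells and the higher for IGF2.

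No gene was called in this experiment, members included: 0% of 15883 genes passed in limma with no term for the replicate number, 1730 had an unadjusted p under 0.05, and no count tool was run on these tables. Groups did not overlap for 2 of the 9 members and for 38.9% of all genes. Within both numbers 3 members (IGFBP3, IGFBP6 and IGFBP7) differed by over 1 on the log2 scale in a shared direction, against 11.7% of all genes, and the choice of members drew on these values. The median log2 difference of the members was 0.80 and that of all genes -0.01. The 8 fibroblast markers summed to 769700 to 1255593 in Control3 and to 632088 to 1119843 after MS-275. Single markers went opposite ways: LUM had 13575 and 9223 in control and 67079 and 38191 after MS-275, and COL3A1 96801 and 91024 against 48244 and 25731. VIM had 82981 and 93914 against 104268 and 108740, and the groups of the other fibroblast markers overlapped. VWF had 85.2 to 111 against 125 to 155, and EPCAM 17.2 to 17.8 against 5.98 to 14.5. Their part in the members' values was not tested.

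Pyruvate gave the tightest replicates, and the ligand led. IGF2 had 78 and 56 normalized read counts in Control6 and 2623 and 2734 after pyruvate, a ratio of 40.0 (log2 difference 5.32 ± 0.16). It ranked 3rd from the top of 12013 genes tested. Both treated libraries lay far above both controls.

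A further 4 members were lower by more than 1 on the log2 scale. IGFBP2, which is abundant in fetal tissue, had 1101 and 1286 in control and 183 and 170 after pyruvate (-2.75 ± 0.14). IGFBP4 had 137584 and 149902 against 27358 and 25887 (-2.43 ± 0.06). IGF2R, the clearance receptor for IGF2, had 38563 and 30347 against 13645 and 14114 (-1.30 ± 0.09), and so differed in the opposite direction to its ligand. IGFBP3 had 57956 and 60785 against 28667 and 28970 (-1.04 ± 0.05).

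Differences were smaller for the rest. IGFBP5 had 296747 and 262997 in Control6 and 195301 and 197341 after pyruvate (-0.51 ± 0.06), and IGFBP6 had 2884 and 3244 against 2403 and 2244 (-0.40 ± 0.08). IGFBP7 had 6759 and 7240 against 5877 and 5874 (-0.25 ± 0.06). IGF1R, the signalling receptor, had 3485 and 3135 against 2967 and 3025 (-0.14 ± 0.07). For these 4 genes too the treated libraries lay below both controls, by margins that were small beside those of IGF2 and IGFBP2.

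In this experiment the difference of a gene followed its base composition. Across 11888 genes with a known GC content, which are not independent replicates, Spearman's rho between GC content and log2 difference was -0.72, compared with -0.11 for A485 and -0.02 for MS-275. After a smooth trend on GC content and transcript length was removed from each library, IGF2 stood at 5.97, IGF2R at -1.51, IGFBP2 at -1.35, IGFBP4 at -1.23 and IGFBP3 at -0.52. IGFBP5 and IGF1R stood at -0.35 and -0.06. IGFBP6 turned from -0.40 to 0.92 and IGFBP7 from -0.25 to 0.45, so their direction depends on this step. IGF1R and IGFBP7 also turned, to 0.17 and 0.06, under equal library totals, which put the median of all genes at 0.30. IGF2, with 60.5% G and C, was higher with and without the trend. Library preparation and treatment cannot be told apart in this trend, because each group has its own libraries.

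Of the 9 members 5 passed the thresholds, 4 lower and 1 higher, beside 54.1% of all genes called, 23.1% lower and 31.0% higher. All 9 had groups that did not overlap, as did 90.5% of all genes, so this count says little. Here too the members were chosen with the contrast in view. IGF2R was under the fold limit with equal totals (-0.99) and quantile normalization (-0.84), and IGFBP3 with both (-0.73 and -0.46) and after a trend on GC content and transcript length was removed (-0.52). The median log2 difference was -0.51 over members and -0.01 over all genes tested. Fibroblast markers summed to 880751 to 896665 in Control6 and 775087 to 778292 after pyruvate. Single markers differed more than the sum: THY1 had 43270 and 43956 in control and 12036 and 12686 after pyruvate, DCN 20180 and 22584 against 53970 and 53281, and LUM 188 and 180 against 829 and 725. VWF, the 1 endothelial marker with a row, had 104 to 164 in control and 33.4 to 46.2 after pyruvate. Their part in the members' values was not tested.

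The composition of the binding protein pool differed between experiments. On the length-normalized scale, IGFBP2 to IGFBP7 together made up 5252 and 6299 ppm in Control2 and 1217 and 995 after A485. IGFBP5 took 41.8% and 47.6% of that sum in control and 1.52% and 0.687% after A485. The remainder was mostly IGFBP4, at 53.7% and 51.0%, with IGFBP6 at 20.4% and 22.0% and IGFBP7 at 11.7% and 21.2%.

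After MS-275 the summed level was 7882 and 9808 ppm, against 5222 and 4338 in Control3. IGFBP3 took 3.48% and 5.38% in control and 25.5% and 46.2% after MS-275. IGFBP5 took 60.9% and 32.3% in control and 44.8% and 14.3% after MS-275, and these ranges overlapped. The rise of 1 share lowers the others by construction.

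After pyruvate the sum was 6259 and 6260 ppm, against 10444 and 10254 in Control6. IGFBP4 took 44.3% and 47.6% in control and 20.2% and 19.2% after pyruvate, and IGFBP5 33.8% and 29.5% against 50.9% and 51.8%. IGFBP3 held 15.8% to 18.2% in all 4 libraries. The binding protein sum was 10118 and 14123 times the level of IGF2 in Control6 and 131 and 125 times after pyruvate. The ratio of IGF2R to IGF1R on the same scale was 9.63 and 8.42 in control and 4.002 and 4.06 after pyruvate. None of these values was corrected for the trend on GC content. When the trend on GC content and length was removed, the log2 difference of IGFBP4 went from -2.43 to -1.23. That of IGFBP5 went from -0.51 to -0.35. The part of the trend in these shares was not tested.

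**Figure D3:**
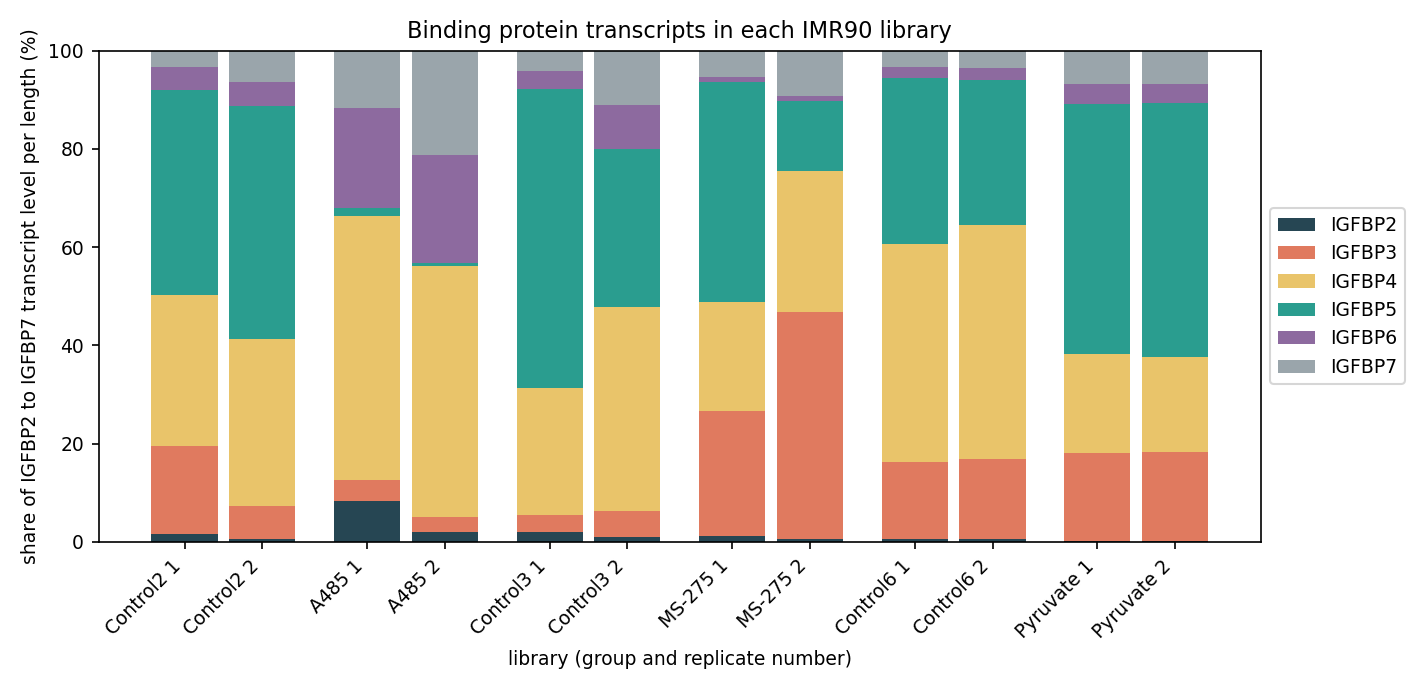
Share (%) of each binding protein in the summed length-normalized transcript level of IGFBP2 to IGFBP7, for each of the 12 IMR90 libraries. IGFBP5 shrinks from 41.8% and 47.6% in Control2 to 1.52% and 0.687% after A485, IGFBP3 reaches 25.5% and 46.2% after MS-275, and IGFBP4 holds 20.2% and 19.2% after pyruvate against 44.3% and 47.6% in Control6. Shares were not corrected for the trend on GC content.

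A further 47 genes of the pathway were followed in 3 lists: carriers and proteases, receptors and signalling, and regulators of IGF2 mRNA or its gene. After A485, 39 were tested, 7 were called lower and 1 higher (limma, Benjamini-Hochberg), a total of 8, beside 10.4% of all genes called, 7.06% lower and 3.31% higher. Their median log2 difference was -0.08, beside 0.01 over all genes. The 3 lists were chosen with earlier results of these data known. The adjusted p-values given for their genes thus describe these libraries and are not independent evidence.

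Of 5 carriers and proteases tested after A485, 3 were called lower, beside 7.06% of all genes. STC2 and STC1, the stanniocalcins that inhibit the protease PAPPA, and PAPPA itself, which cuts IGFBP4, were all called. STC2 had 36397 and 45361 normalized read counts in Control2 and 306 and 525 after A485 (log2 fold change -6.66 ± 0.29, limma adjusted p = 0.00081). PAPPA had 5235 and 8461 against 56 and 114 (-6.36 ± 0.40, limma adjusted p = 0.0013). The protease and its inhibitors thus fell together with its substrate IGFBP4.

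STC1 had 975 and 2231 in control and 110 and 88 after A485 (-3.89 ± 0.43, limma adjusted p = 0.0055). Of 27 receptor and signalling genes, 3 were called lower and 1 higher, beside 7.06% and 3.31% of all genes. IRS1, the adaptor that links the receptor to PI3-kinase, had 10198 and 13837 against 1081 and 1430 (-3.26 ± 0.23, limma adjusted p = 0.0019). EIF4EBP1, a repressor of translation downstream of mTOR, changed by -2.16 ± 0.30 (limma adjusted p = 0.011), and the adaptor SHC1 by -1.17 ± 0.21 (limma adjusted p = 0.023).

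FOXO4, a transcription factor held in check by AKT, rose from 235 and 457 to 863 and 1010 (1.51 ± 0.35, limma adjusted p = 0.045). Of 7 regulators tested only HMGA2 was called, beside 10.4% of all genes. HMGA2, a chromatin protein that promotes IGF2 and IGF2BP2 expression, fell from 11532 and 16390 to 569 and 550 (-4.62 ± 0.21, limma adjusted p = 0.00081). The calls of STC2, PAPPA, IRS1 and HMGA2 held under all 12 alternatives run. That of STC1 was lost without either A485 library (-4.05 and -3.74), and that of EIF4EBP1 without the second A485 library (-1.74) or either Control2 library (-2.05 and -2.28). FOXO4 was not called without either A485 library (1.62 and 1.39) or the first Control2 library (1.03). SHC1 was not called without any 1 of the 4 libraries (-1.41 to -0.94), nor under equal totals (-0.78) or quantile normalization (-0.70).

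After MS-275, 0 of 39 pathway genes tested were called in limma with no term for the replicate number, beside 0% of all genes. STC1 was the one gene of the lists that differed by over 1 on the log2 scale in the same direction within both numbers. It had 1290 and 2153 in Control3 and 6404 and 7971 after MS-275, differences of 2.31 and 1.89, and its groups did not overlap. PAPPA had 5226 and 2221 against 3299 and 714, and the groups overlapped.

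After pyruvate, 26 of 37 pathway genes tested were called, 18 higher and 8 lower, beside 54.1% of all genes, 31.0% higher and 23.1% lower. Once the trend on GC content and length was removed 9 were called, beside 28.9% of the 11888 genes with a known GC content. Of these, PAPPA at -1.45 and EIF4EBP1 at 2.12, named here after their values were seen, were called only then. STC2 fell from 68943 and 69801 to 29100 and 28960 (-1.26 ± 0.05, limma adjusted p = 1e-09), with -1.18 after that removal. FOXO4 fell from 810 and 701 to 133 and 162 (-2.36 ± 0.17, limma adjusted p = 1.2e-07), with -1.65 after removal. The calls of IRS1 (1.15 before and 1.13 after removal), IRS2 (1.15 and 1.65) and FOXO3 (2.01 and 1.73), also named after their values were seen, held as well. The calls of STC2 and FOXO4 held in these 2 settings, and that of STC2 was lost under equal totals (-0.95) and quantile normalization (-0.67), where its fold was under the limit. The median log2 difference of the pathway genes was 0.92 before removal, beside -0.01 over all genes. That median was not corrected for the trend, and the part of the trend in it was not tested.

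IGF2BP2, which binds IGF2 mRNA, rose from 2116 and 1992 to 4673 and 4737 (1.20 ± 0.07, limma adjusted p = 2.6e-08), with 1.09 after removal. CTCF, which insulates the IGF2 locus, rose from 800 and 832 to 1977 and 2138 (1.33 ± 0.09, limma adjusted p = 8.7e-08), with 1.02 after removal. These were the 2 regulators of 5 called that stayed called.

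HMGA2 was at 1161 and 1169 in Control6 and 5237 and 5250 after pyruvate, a log2 fold change of 2.17 ± 0.07 (limma adjusted p = 4.4e-10) that became 0.88 after removal and was then not called. The call was lost in the same way for IGF2BP3 and PLAG1, at 2.28 and 2.55 before and 0.46 and 0.61 after. PIK3CB and PIK3R1, a catalytic and a regulatory subunit of PI3-kinase, were at 2.86 and 2.81 before removal and 0.93 and 0.81 after it. GRB2, SHC1 and HTRA1, the last a protease that cuts binding proteins, were at -1.32, -1.27 and -1.27 before and -0.86, -0.55 and -0.25 after. Each of these 8 genes, HMGA2 included, was called before the removal and not after it.

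**Figure D4:**
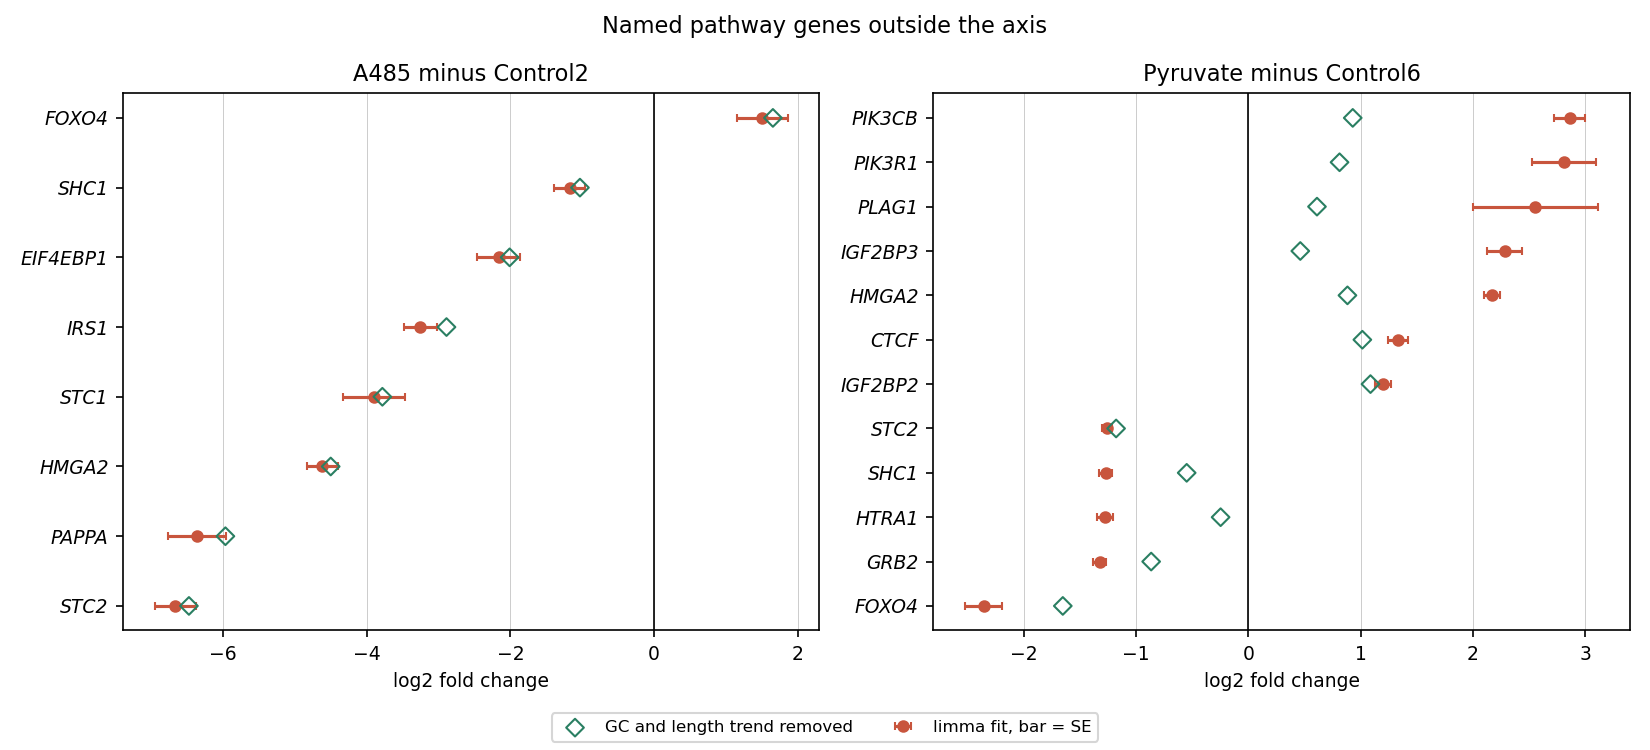
Log2 fold change (limma, bars SE, n = 2 libraries a group) of pathway genes called for A485 and for pyruvate. Where over 6 of a list were called, the genes drawn were among the 3 highest and 3 lowest before removal of the trend. Diamonds give the value after the trend on GC content and length was removed. PAPPA, EIF4EBP1, IRS1, IRS2 and FOXO3 are not in the pyruvate panel. Diamonds lie near the points for A485, with STC2 and PAPPA at -6.66 and -6.36. They move toward 0 for most pyruvate genes drawn, with PIK3CB going from 2.86 to 0.93.

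The genes whose pattern was most like that of 3 members were found by Pearson's r over the 12 IMR90 libraries, after the mean of each experiment was removed, among 9769 genes. For IGFBP5 they were PDGFRB (r = 0.98), GABBR2 (0.98) and ACTG2 (0.98), and for IGFBP3 TM4SF1 (0.95), PDIA6 (0.95) and GSR (0.95). For IGF2 they were CCN4 (0.96), SLC6A15 (0.95) and CARD16 (0.94). The points share their experiments and normalization. For IGFBP5 their spread comes mostly from the gap between the Control2 and A485 libraries, with the other libraries in between.

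In mouse muscle only Igf2r and Igfbp2 had rows, and the choice of members did not use these libraries, which carried 10836858 to 14190054 reads. Igfbp2 had 673 and 1718 normalized read counts in Control4 and 350 and 303 after MS-275, a log2 fold change of -1.72 ± 0.45 (limma adjusted p = 0.048), where 16.2% of all genes were called. It was not called without the second Control4 library (-1.04) or either MS-275 library (-1.82 and -1.62), nor with no filter on low values. Under equal library totals it was -0.76 and not called, a setting that put the median of all genes at 0.95. Igf2r had 8507 and 7534 against 5704 and 8903 (-0.17 ± 0.34, limma adjusted p = 0.77), and the groups overlapped.

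After NALA, Igfbp2 had 916 and 914 against 727 and 791 in Control5 (0.27 ± 0.08, limma adjusted p = 0.017), below the fold needed for a call, in a comparison that called 3.35% of genes. Igf2r had 7192 and 6859 against 6867 and 7105 (0.01 ± 0.05, limma adjusted p = 0.94). These mouse values carry a limit. Defining muscle genes were low or unlisted: Ckm had 13.4 to 70.9 and Aldoa 6.55 to 12.2 normalized read counts over the 8 libraries, and Acta1 had no row. Symbols nearby on the chromosome were very high, as Apoc4, 273 kb from Ckm, at 69265 to 565245, and Tbc1d10b, 402 kb from Aldoa, at 116773 to 466398. These pairs were chosen after their values were seen, the cause was not tested, and a mouse symbol here may not stand for the reads of its own gene.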

How the data were processed

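Gene expression was measured by RNA-seq of total RNA in 20 libraries. The authors trimmed reads with Trim Galore (version 0.6.10), aligned them with HISAT2 (version 2.2.1) to hg38 or mm10, used SAMtools (version 1.7), and counted reads per gene with featureCounts (version 2.0.6). Size factors came from DESeq2 (version 1.34.0). The annotation and strand setting are not given in the sources used here. The deposited values are a signal, read counts divided by 1 size factor per library, set within each quartet of 2 control and 2 treated libraries.

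All values were whole multiples of the value of 1 read (tolerance 0.02), which gave the totals. A separate check of the recovered reads was met for the A485 and muscle tables and not for the IMR90 MS-275 and pyruvate tables, so no count tool was run on the latter and their totals rest on the recovered value of 1 read. The 2 libraries of a group differed by more than sampling noise in all 10 groups (chi-square per gene 3.93 to 472). Tests used limma (version 3.58.1, R version 4.3.3) on log2(value + 1), with eBayes and a trend, no covariate, genes with a mean of at least 10, two-sided, and Benjamini-Hochberg adjustment over all genes tested. Calls needed an adjusted p under 0.05 and a log2 fold change above 1 in size. Fold changes on this scale understate those of low genes. Differences within a replicate number used the same scale.

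Transcript length and GC content came from canonical transcripts of GENCODE 44 (hg38), and GC and length trends were removed from each library with natural splines of 5 degrees of freedom. Promoters came from RefSeq (GRCh38.p14). Members, lists and tests were chosen with earlier results of these data known. The text names all members, the called genes of each list (where over 6 were called, the 3 highest and 3 lowest) and the 3 genes most like IGF2, IGFBP3 and IGFBP5. Of the genes so named 1 is not reported here, and the counts keep it. Alternatives were a pseudocount of 10, no filter, quantile normalization, equal library totals, the GC and length trend, the replicate number as a block, leaving out each library, and 2 count tools, edgeR 4.0.16 and DESeq2 1.42.0, run on reads recovered from the A485 and muscle tables. In simulated data each comparison was tested with changed genes put in before use. The libraries simulated for this were independent, with no effect of replicate number or GC content. The check thus cannot show how the fit performs on the spread between libraries seen here. Tables and plots were made in Python 3.11.15 with pandas 2.3.3, numpy 2.4.6, matplotlib 3.10.9 and scipy 1.17.1.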

Additional observations from a re-analysis of the deposited data

How the results depend on the processing

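With 2 libraries a group, the number of genes called moved with single libraries. A485 called 1667 genes, 117 to 844 without any 1 of its 4 libraries and 2584 under equal library totals. The pathway count of 8 went to 4 to 6, and was 5 and 4 without A485 replicate 1 and 2. MS-275 in IMR90 called 0 genes, but 390 and 419 without Control3 replicate 1 and 2 and 12 without MS-275 replicate 1, with 0 to 1 pathway genes. Pyruvate called 6503 genes and 26 pathway genes, and 3440 and 9 with the GC and length trend removed. Muscle MS-275 called 1539 genes, 0 to 873 with a library left out (0 without MS-275 replicate 1) and 2974 under equal totals. NALA counts stayed within 1.5 times of 298. For A485, edgeR called 1664 genes and DESeq2 2325.

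With the replicate block, MS-275 in IMR90 called 2183 genes and 4 pathway genes, A485 2486, pyruvate 6513, muscle MS-275 1556 and NALA 311. The labels do not say that a number marks a shared source, so the libraries share only a number. The correlations of same-numbered libraries were 0.32, 0.73, 0.002, -0.11 and -0.01 in the order A485, MS-275, pyruvate, muscle MS-275 and NALA. For muscle MS-275 the crossed pairing, added after seeing the data, called 1730.

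Over 288 values of the members in IMR90 under alternatives, 270 kept their sign. Those that changed it were IGF1R, IGF2, IGF2R and IGFBP2 for A485, IGF2, IGFBP2 and IGFBP5 for MS-275, and IGF1R, IGFBP6 and IGFBP7 for pyruvate. IGFBP5 after A485 ranged from -8.88 to -7.52, IGFBP3 from -4.83 to -3.85 after A485 and from 3.22 to 4.80 after MS-275, and IGF2 after pyruvate from 5.09 to 5.97.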
